A study of Mus musculus with 2 samples.

Results

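The genes described here encode 34 subunits of the SWI/SNF and NuRD complexes, 21 of SWI/SNF and 13 of NuRD, out of 18193 genes with a probe set on the array. They were taken by name, as subunits of the complexes that BCL11 proteins bind, and every probe set that the platform annotation paired with exactly 1 gene from this list was read. That gave 84 probe sets, and each of the 34 genes had at least 1. Expression was measured in primary mouse embryonic fibroblasts (MEFs) of C57BL/6 embryos at embryonic day 12.5, either wild type (*BCL11B*+/+) or *BCL11B*-/-, at passage 2. Both cultures had been in adipocyte differentiation medium for 12 h, which held insulin (10 μg/ml), pioglitazone (10 μM), dexamethasone (1 μM) and methylisobutylxanthine (0.5 mM), and per the paper's methods also ascorbic acid. There was 1 array per genotype and so no replicate, and the number of embryos behind each culture is not given in the sources used here. Differences are therefore described by size, as *BCL11B*-/- minus *BCL11B*+/+ on the log2 scale, and no p-value is given.

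SWI/SNF, also called BAF, uses the energy of ATP to slide or eject nucleosomes and is mostly tied to open, active chromatin. NuRD joins an ATP-driven remodeller to histone deacetylases and is mostly tied to repression. BCL11B has been found both as a subunit of SWI/SNF and as a factor that brings NuRD to promoters. In adipogenesis SWI/SNF is known to help PPARγ and C/EBP factors turn on their targets. The comparison asks whether MEFs without BCL11B had other mRNA levels of the remaining subunits.

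*Bcl11b* itself was lower in *BCL11B*-/- MEFs on all 4 of its probe sets, with differences from -1.57 to -1.18, and its brightest probe set read 8.77 in *BCL11B*+/+ and 7.40 in *BCL11B*-/- MEFs. Probe set signal remained in the *BCL11B*-/- culture, and the deleted exons are not given in the sources used here. By immunoblot the paper could not detect BCL11B protein in *BCL11B*-/- MEFs. The fibroblast genes *Col1a1*, *Col1a2*, *Col3a1*, *Vim*, *Pdgfra* and *Fn1* differed by -0.18 to 0.18, while *Thy1* and *Dcn* differed by -0.65 and -0.88. Apart from genotype, the cultures differed in *Xist* (10.80 and 4.80) and in *Eif2s3y*, *Kdm5d* and *Uty* of the Y chromosome (1.08, 0.97 and 0.81 higher in *BCL11B*-/- MEFs). These Y genes read 7.89, 6.84 and 6.80 in *BCL11B*+/+ MEFs, so *Xist* and Y-linked signal were both present in that culture. They also differed in macrophage genes, where the 8 measured of 10 differed by -0.95 (*Laptm5*) to -0.50, 7 of them past 1.5-fold, namely *Laptm5*, *Tyrobp*, *Lyz2*, *Csf1r*, *Ptprc*, *Cd68* and *Adgre1*. The remaining one was *Fcer1g* with -0.50, and *Aif1* and *Itgam* had means under 5 log2 units. Summed on the linear scale, the 10 macrophage genes read 3692 in *BCL11B*+/+ and 2042 in *BCL11B*-/- MEFs. In such bulk RNA, fewer cells of a type and less RNA per cell cannot be told apart. Neural *Tubb3* was 0.61 higher, with the other 4 neural genes under 5. The T cell genes *Cd3d* and *Cd3g* were under 5, and *Cd3e*, *Cd4* and *Cd8a* differed by at most 0.053. The endothelial gene *Kdr* differed by 0.15, with *Pecam1*, *Cdh5* and *Tek* under 5. RNA quality was read from β-actin, whose 3′ control probe set exceeded the 5′ one by 1.64 in *BCL11B*+/+ and 1.47 in *BCL11B*-/- MEFs. The part of these differences in the values of the subunits was not tested.

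None of the 34 subunits differed by 1.5-fold between the genotypes, in either direction. A gene was read on its brightest probe set, by the mean of both arrays, and all 34 subunits passed the floor of 5 log2 units, with means from 5.87 to 12.69. Of all 12331 genes above that floor, 1.61% lay past 1.5-fold on the higher side, 1.75% on the lower side and 3.36% on either, so a count of 0 among 34 is close to the background. At 1.2-fold, 1 subunit was higher and 2 were lower, against 8.81% and 7.8% of all genes. The median difference was -0.02 for SWI/SNF, 0.11 for NuRD and 0.00 for all genes. The quartiles of the subunits were -0.08 and 0.12, against -0.11 and 0.11 for all genes. As a yardstick, the spread between probe sets was taken from genes with several of them. Around the mean of their gene, such differences scattered with an SD of 0.145 on the log2 scale, pooled from 5543 genes. It comes from the same 2 arrays, so variation of RNA, labelling or arrays shared by the probe sets of a gene is not in it. Of the 34 subunits 27 (79.4%) differed by less than that SD, against 62.0% of all genes. Ranked by the size of the difference, the first subunit stood at place 1297 of 12331.

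**Figure D1:**
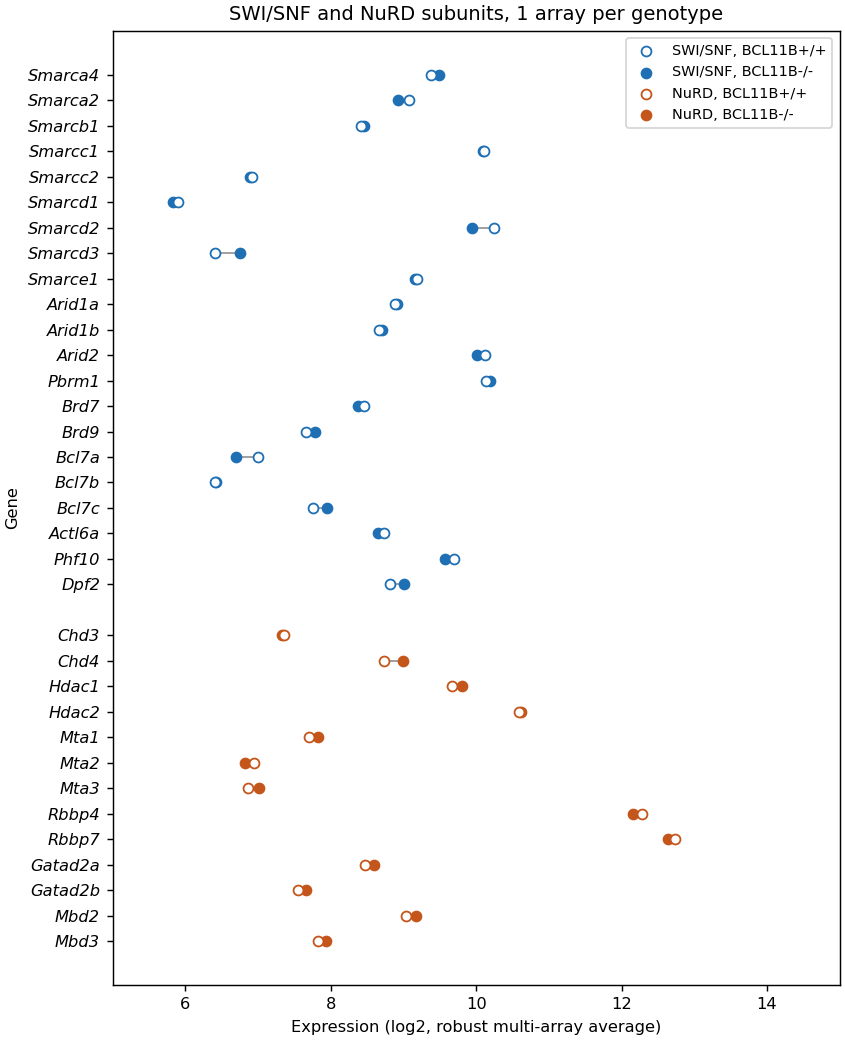
Log2 expression (horizontal axis, normalized by the robust multi-array average) of 21 SWI/SNF subunits (blue) and 13 NuRD subunits (orange, vertical axis). Open circles stand for *BCL11B*+/+ and filled circles for *BCL11B*-/- MEFs, each gene on its brightest probe set and with 1 array per genotype. The circles of most genes touch or overlap, and the widest gaps are those of *Smarcd3* (6.41 and 6.74) and *Smarcd2* (10.25 and 9.94).

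The ATPases that drive SWI/SNF differed little. *Smarca4*, which encodes BRG1, read 9.38 in *BCL11B*+/+ and 9.48 in *BCL11B*-/- MEFs, a difference of 0.10, and its second probe set read 8.19 and 8.44. *Smarca2*, which encodes the alternative ATPase BRM, read 9.07 and 8.93, a difference of -0.14, and its second probe set read 7.07 and 6.98. Both probe sets of *Smarca4* were thus higher and both of *Smarca2* lower in *BCL11B*-/- MEFs, and the differences of the pair were 0.24 log2 units apart. That gap compares with 0.21, the SD that the probe set spread gives for a gap between 2 genes.

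The SMARCD subunits held the largest differences of all 34 genes. *Smarcd3*, 1 of 3 related members of this family that link the complex to transcription factors, read 6.41 in *BCL11B*+/+ and 6.74 in *BCL11B*-/- MEFs, which is 1.26-fold higher. It has a single probe set, so nothing on the array checks this value. *Smarcd2* read 10.25 and 9.94, which is 1.24-fold lower. Its other probe sets read 8.30 and 8.11, and 6.04 in both, so none was higher and the size went from -0.31 to 0.00. *Smarcd1* read 5.90 and 5.83, close to the floor. The SMARCD genes therefore held both the highest and the lowest subunit, and the differences of *Smarcd3* and *Smarcd2* lay 0.65 log2 units apart, the widest gap of 19 pairs of related subunits. With the probe sets of each gene averaged that gap was 0.50, and *Smarcd1* with *Smarcd3* was the widest at 0.66, since a dim probe set brought *Smarcd1* to -0.32.

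The upstream sequences of the highest and the lowest subunit of each complex are shown because these 4 genes mark the limits of the range. Each is the 250 bases before the most upstream start in the RefSeq table for GRCm38.p6, 5′ to 3′ on the strand of the gene, with every CG pair in capitals. *Smarcd3* lies at chr5:24602003-24602252 on the minus strand, *Smarcd2* at chr11:106267633-106267882 on the minus strand, *Chd4* at chr6:125095731-125095980 on the plus strand and *Mta2* at chr19:8941670-8941919 on the plus strand.
Smarcd3: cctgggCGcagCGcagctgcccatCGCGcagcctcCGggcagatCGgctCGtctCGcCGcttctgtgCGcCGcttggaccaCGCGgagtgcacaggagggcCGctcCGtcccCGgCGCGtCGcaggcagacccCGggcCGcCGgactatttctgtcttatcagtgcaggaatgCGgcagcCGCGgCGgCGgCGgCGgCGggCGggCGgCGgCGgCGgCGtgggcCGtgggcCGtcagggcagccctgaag
Smarcd2: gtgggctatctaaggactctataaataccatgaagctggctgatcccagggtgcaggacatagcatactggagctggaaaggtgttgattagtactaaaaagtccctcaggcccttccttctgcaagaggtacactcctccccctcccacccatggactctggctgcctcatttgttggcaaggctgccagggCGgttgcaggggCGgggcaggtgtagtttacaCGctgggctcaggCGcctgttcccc
Chd4: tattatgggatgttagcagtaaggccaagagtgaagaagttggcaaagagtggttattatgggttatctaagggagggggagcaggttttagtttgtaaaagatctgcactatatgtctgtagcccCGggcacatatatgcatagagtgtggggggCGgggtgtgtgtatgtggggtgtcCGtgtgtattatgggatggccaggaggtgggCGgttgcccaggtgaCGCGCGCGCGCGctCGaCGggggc
Mta2: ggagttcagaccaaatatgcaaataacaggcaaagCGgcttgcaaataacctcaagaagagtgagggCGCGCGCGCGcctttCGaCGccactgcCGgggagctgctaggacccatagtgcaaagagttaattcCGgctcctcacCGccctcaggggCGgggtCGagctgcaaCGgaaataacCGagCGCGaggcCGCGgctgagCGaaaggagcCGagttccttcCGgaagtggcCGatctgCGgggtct
*Smarcd3* and *Smarcd2* differ in these windows too, since that of *Smarcd3* is 76.0% G and C with 38 CG pairs and that of *Smarcd2* is 56.4% with 4. The windows of *Chd4* and *Mta2* hold 54.0% and 60.4%, with 12 and 24 CG pairs. BCL11 proteins are known to bind GC-rich sequence, and the letters GGCCGG were searched on both strands as the core of an element described for BCL11A. None of these 4 windows holds them, while a second start of *Chd4* has them upstream. Of 27 subunits with an entry 15 had GGCCGG before at least 1 start. Counted by window that was 53.1% of 32, against 15.8% of 32841 windows of all genes, where the median share of G and C was 67.6% and 52.4%. The 15 subunits with the letters had a median difference of 0.03 and the 12 without them also 0.03. TGACCA, another motif known for BCL11A, was found in 1 of the 32 windows (3.13%) and in 11.4% of all. A match of letters is a description, and no binding was measured here.

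Other subunits of canonical BAF and PBAF differed by less. *Smarcc1* and *Smarcc2*, the scaffold on which the complex is built, read 10.11 and 10.10, and 6.92 and 6.89, in *BCL11B*+/+ and *BCL11B*-/- MEFs. Further probe sets of *Smarcc1* went opposite ways, with 0.12 and -0.34, so its value of -0.02 rests on the choice of probe set. *Smarcb1*, the SNF5 subunit, read 8.41 and 8.46, and its second probe set 7.71 and 7.59. *Smarce1*, which holds an HMG box, read 9.19 and 9.16 on one probe set, and 8.85 and 9.10 on another. *Actl6a*, an actin-related subunit, read 8.73 and 8.65, with -0.14 and 0.17 on its other probe sets. *Smarcc1*, *Smarcb1*, *Smarce1* and *Actl6a* thus each had probe sets above the floor on both sides of 0.

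Subunits that define the forms of SWI/SNF were also close to 0. *Arid1a* and *Arid1b*, the alternative large subunits of canonical BAF, differed by 0.03 and 0.04. *Dpf2*, a PHD finger protein of the same form, read 8.81 and 9.01, a difference of 0.20, with 0.04 on its second probe set. The subunits of the polybromo form, PBAF, lay on both sides. *Pbrm1*, which carries a row of bromodomains, read 10.14 and 10.19, and all 3 of its probe sets were higher in *BCL11B*-/- MEFs by 0.06 to 0.09. *Arid2* read 10.12 and 10.02, with 3 of 4 probe sets lower. *Phf10* read 9.70 and 9.58, and its second probe set 6.98 and 6.79. *Brd7* differed by -0.08. *Brd9*, the bromodomain subunit of the non-canonical form, differed by 0.12. Of PBAF, *Arid2*, *Phf10* and *Brd7* were thus lower and *Pbrm1* higher, and *Arid1a*, *Arid1b* and *Dpf2* of BAF were higher. Each difference was at most 0.20 in size, without a replicate to set against it.

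The 3 BCL7 subunits, small proteins whose role in the complex is less well known, had no common direction. *Bcl7a* read 6.999 in *BCL11B*+/+ and 6.702 in *BCL11B*-/- MEFs, which is 1.23-fold lower and next to *Smarcd2* the lowest value of all subunits. Its other 4 probe sets had means under 5 and differed by -0.27 to 0.20. *Bcl7b* read 6.41 and 6.42. *Bcl7c* read 7.75 and 7.95, a difference of 0.20, but its 3 dimmer probe sets differed by -0.08 to -0.05. *Bcl7a* and *Bcl7c* lay 0.50 log2 units apart, and 0.09 with all probe sets of each gene averaged (-0.09 and 0.00). For *Bcl7a* that average includes the 4 probe sets with means under 5. Averaged over probe sets with a mean of at least 5 alone, the differences were -0.30 and 0.00. The size of this gap thus depends on the probe sets used, in part on dim ones.

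**Figure D2:**
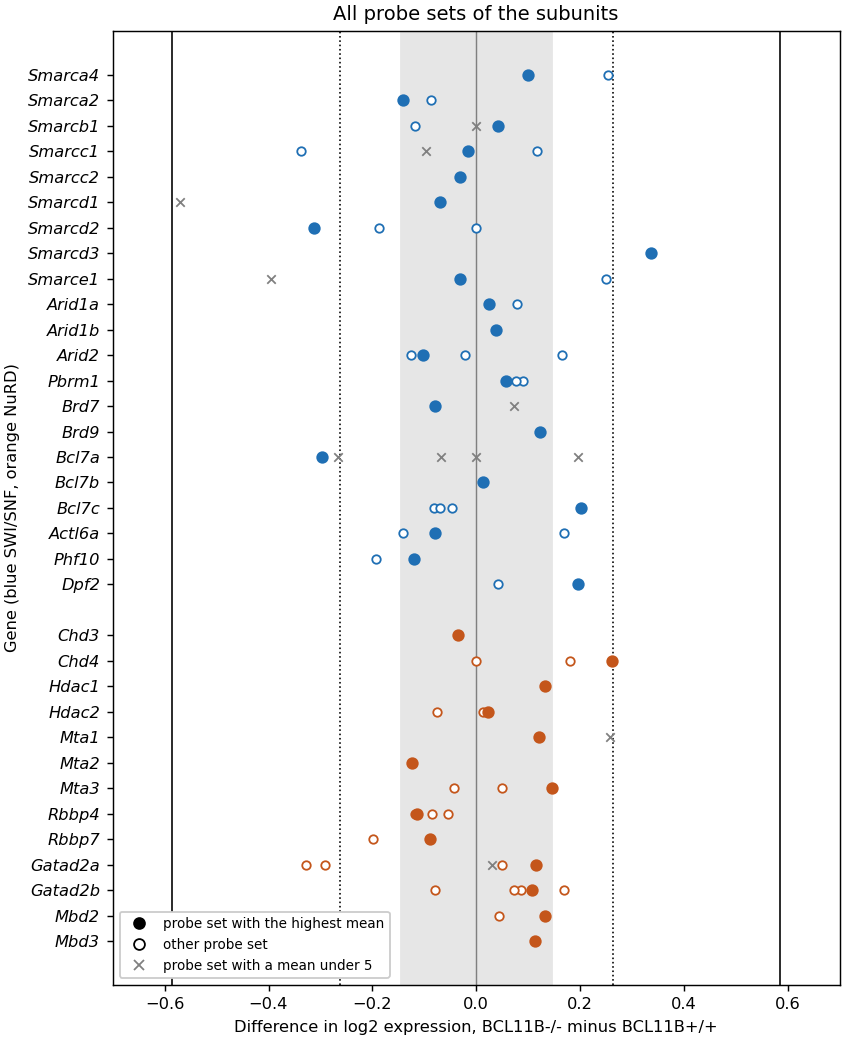
Difference in log2 expression (horizontal axis, *BCL11B*-/- minus *BCL11B*+/+) for each of the 84 probe sets of the subunits (vertical axis, blue SWI/SNF and orange NuRD), with 1 array per genotype. Filled circles are the probe sets with the highest mean, open circles are other probe sets, crosses have a mean under 5, solid lines mark 1.5-fold, dotted lines 1.2-fold and the grey band is ±0.145, the pooled SD between probe sets of 1 gene. No point lies past 1.5-fold, and *Smarcd3* at 0.34 is the farthest to the right.

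In NuRD, 9 of 13 subunits were above 0 and 4 below, against 6022 above and 5981 below among the 12331 genes, and none was past 1.2-fold. With the probe sets of each gene averaged, *Hdac2* (-0.01) and *Gatad2a* (-0.08) changed sign, which left 7 above and 6 below. The ATPase gene *Chd4*, the catalytic core of the complex, was the highest. It read 8.73 in *BCL11B*+/+ and 8.99 in *BCL11B*-/- MEFs, a difference of 0.262 against 0.263 for the 1.2-fold rule. Its second probe set read 8.56 and 8.74, and its dimmest 7.64 in both, again an exact tie. *Chd3*, the alternative ATPase, read 7.36 and 7.32. The *Chd4* and *Chd3* differences lay 0.30 apart.

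The deacetylase genes *Hdac1* and *Hdac2*, which also serve other co-repressors, read 9.67 and 9.80, and 10.59 and 10.61. *Hdac1* has 1 probe set. The 3 probe sets of *Hdac2* differed by -0.08 to 0.02. The scaffold genes of the MTA family split: *Mta1* read 7.70 and 7.82, *Mta3* 6.87 and 7.01, and *Mta2* 6.95 and 6.82. *Mta2* was the lowest NuRD subunit with -0.12, on its only probe set. *Gatad2a* and *Gatad2b*, which bridge the deacetylase and remodeller parts of NuRD, differed by 0.11 each. For *Gatad2a* the probe sets disagreed, at 0.11 and 0.05 on the brightest and -0.29 and -0.33 on dimmer ones, while 4 of 5 probe sets of *Gatad2b* were higher. *Mbd2*, which binds methylated CpG, read 9.04 and 9.17 and was higher on both probe sets, and *Mbd3*, which lacks most of that binding and forms separate complexes, read 7.82 and 7.94.

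The histone-binding subunits *Rbbp4* and *Rbbp7*, also found in Polycomb and SIN3 complexes, went the other way from most of NuRD. *Rbbp4* read 12.28 in *BCL11B*+/+ and 12.16 in *BCL11B*-/- MEFs, and all 4 of its probe sets were lower, with differences from -0.12 to -0.05. *Rbbp7* read 12.74 and 12.65, and 12.38 and 12.18 on its second probe set. *Rbbp7* is the only X-linked gene among the 34, and the cultures differed in *Xist* by -5.99. In the genes *Kdm6a*, *Kdm5c*, *Eif2s3x* and *Ddx3x*, which escape X inactivation, the differences ran from -0.47 to -0.29, larger than the -0.09 and -0.20 of *Rbbp7*. The part of embryo sex in *Rbbp7* was not tested. The brightest probe sets of *Rbbp4* and *Rbbp7* carry the suffix _x, and those of *Hdac2*, *Mta3* and *Gatad2a* carry _s, which mark probes that can also match other transcripts. On probe sets with no suffix *Rbbp4* differed by -0.08, *Rbbp7* by -0.20, *Hdac2* by 0.01, *Mta3* by 0.05 and *Gatad2a* by 0.05.

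Of the 19 pairs of related subunits, 10 had differences of opposite sign and 9 of 1 sign. The pairs that lay closest were *Gatad2a* and *Gatad2b* (0.11 and 0.11), *Arid1a* and *Arid1b* (0.03 and 0.04), *Smarcc1* and *Smarcc2* (-0.02 and -0.03), *Mbd2* and *Mbd3* (0.13 and 0.11), *Rbbp4* and *Rbbp7* (-0.11 and -0.09) and *Mta1* and *Mta3* (0.12 and 0.15). Besides the SMARCD, BCL7 and CHD pairs, *Phf10* and *Dpf2* lay 0.32 apart and *Mta2* and *Mta3* 0.27 apart. On the brightest probe sets, *Smarcd2* with *Smarcd3* and *Bcl7a* with *Bcl7c* exceeded 2 times the 0.21 that the probe set spread gives for such a gap, with *Smarcd1* and *Smarcd3* close behind at 0.41. With all probe sets averaged, those under the floor included, the pairs past it were *Smarcd2* with *Smarcd3* and *Smarcd1* with *Smarcd3*. In that average *Smarcd1* (-0.32) and *Bcl7a* (-0.09) were each moved by probe sets with means under 5. With a smooth (loess) trend of the difference on the mean level subtracted, the pairs were these 2 and *Bcl7a* with *Bcl7c*. Several pairs share a gene, so the 19 are not independent.

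**Figure D3:**
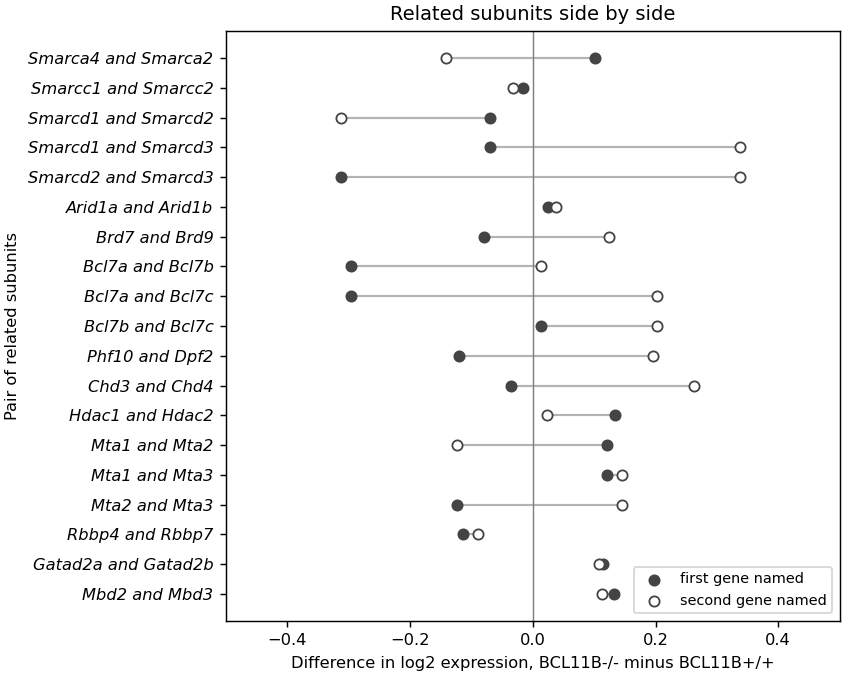
Difference in log2 expression (horizontal axis, *BCL11B*-/- minus *BCL11B*+/+) of the 2 genes in each of 19 pairs of related subunits (vertical axis), the first named as a filled and the second as an open circle, with 1 array per genotype. The line between *Smarcd2* (-0.31) and *Smarcd3* (0.34) is the longest, and those of *Gatad2a* and *Gatad2b* or *Arid1a* and *Arid1b* are nearly points.

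The spread among subunits was about that among probe sets of a single subunit. Between the 34 genes the SD of the difference was 0.143, and between probe sets of 1 gene it was 0.130 over the 21 subunits with more than 1 probe set of mean 5 or above. In 9 of these 21 genes all such probe sets had 1 sign. They were higher in *BCL11B*-/- MEFs for *Smarca4*, *Arid1a*, *Pbrm1*, *Dpf2* and *Mbd2*, and lower for *Smarca2*, *Phf10*, *Rbbp4* and *Rbbp7*. The other 12 had probe sets of both signs or at 0, and 13 subunits had a single probe set of that level. No subunit had probe sets past 1.2-fold in opposite directions. Over all 73 such probe sets the median was 0.00, none was past 1.5-fold, against 3.05% of 21614 named probe sets, and at 1.2-fold 1 was higher and 5 were lower, against 8.44% and 8.94%.

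On their brightest probe sets, other subunits and partners of the complexes also differed little. Of 8 further SWI/SNF subunits none was past 1.5-fold, with a median of 0.03. *Actb*, since β-actin sits in the complex beside ACTL6A, read 13.06 and 13.25, and *Ss18l1*, a relative of the SS18 subunit, read 6.34 and 6.06, which is the lowest of that list with -0.28. The second probe set of *Ss18l1* differed by -0.03. *Ss18* itself differed by -0.01. *Bcl11a*, the paralog of *Bcl11b* and likewise a SWI/SNF partner, read 6.07 and 6.26, a difference of 0.19. Dimmer probe sets of *Bcl11a* above the floor disagreed in size. One read 5.91 and 5.95, a difference of 0.04, and another 5.51 and 5.95, which is 1.35-fold higher. Of 8 further NuRD subunits and partners none was past 1.5-fold either, with a median of -0.01. *Sall2*, a zinc finger factor that can recruit NuRD, differed by 0.20, and *Sirt1*, a deacetylase that BCL11B is known to bring to promoters, read 8.37 and 8.19. *Actl6b*, *Sall1*, *Sall3* and *Sall4* had means under 5.

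Other chromatin complexes gave a similar range. None of 28 ISWI, INO80 and other CHD remodeller genes passed 1.5-fold, with a median of 0.00 and limits of -0.33 (*Baz1a*) and 0.33 (*Ino80b*). None of 25 Polycomb genes did, with a median of 0.01 and limits of -0.29 (*Pcgf5*) and 0.27 (*Pcgf1*). None of 18 SIN3, CoREST and NCoR genes did, with a median of -0.04 and limits of -0.23 (*Arid4a*) and 0.50 (*Sap30*). The NuRD median of 0.11 was the highest of these chromatin lists. With all probe sets of each gene averaged it was 0.05, the same as for the further SWI/SNF subunits (0.05). Genes of the cell cycle differed more. All 14 mitosis genes were higher in *BCL11B*-/- MEFs, by 0.21 to 0.54, with *Bub1* the highest. Replication genes went both ways. The 6 MCM helicase genes ran from -0.18 to 0.09, and *Rrm2* was the lowest gene of the joint list with -0.30. *Gins1*, *Gins2*, *Cdc45* and *Cdc6* were higher, by 0.28, 0.22, 0.18 and 0.17, while *Pcna* and *Rrm1* differed by -0.01 and -0.05. The joint list of 27 had a median of 0.28, with none past 1.5-fold. Whether a different share of dividing cells had a part in the values of the subunits was not tested.

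**Figure D4:**
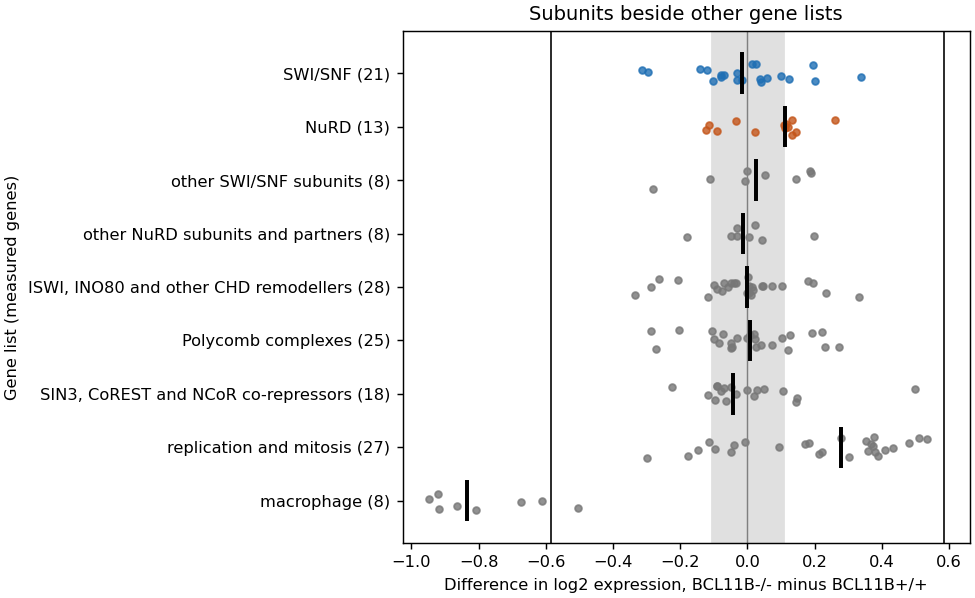
Difference in log2 expression (horizontal axis, *BCL11B*-/- minus *BCL11B*+/+) for the measured genes of 9 lists (vertical axis, number of genes in brackets), with 1 array per genotype. Points are genes, scattered vertically for sight only, black bars are medians, solid lines mark 1.5-fold and the grey band holds the middle of all 12331 genes, from -0.11 to 0.11. The bars of SWI/SNF (-0.02) and the other chromatin lists except NuRD lie well inside the band and that of NuRD (0.11) at its edge, while macrophage genes (-0.84) lie far to the left.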

How the data were processed

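Per the labels and the paper's methods, the authors amplified 100 ng of total RNA, hybridized it to Affymetrix Mouse Genome arrays, 1 per genotype, and made the deposited log2 values with the robust multi-array average (R 3.0.3 in the submitters' processing notes). This scales both arrays to 1 distribution, so a change of total mRNA would not be seen, and background pulls differences of dim genes toward 0. Of 45101 probe sets 34958 were paired with 1 gene, 932 with several and 9211 with none. With only 2 arrays the summary of probes can return equal values, and 2971 probe sets (6.59%) differed by exactly 0.

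Control probe sets were left out, and each gene was represented by its brightest probe set, with a floor of 5. Counts used 1.5-fold and 1.2-fold. No p-value was computed. The code for the 1.5-fold rule was run on simulated data with planted changes, with the probe set spread as the only noise. That run held no variation between cultures and did not cover the 1.2-fold rule. Every subunit is named, with both levels for those past 1.2-fold, the highest and lowest of each complex and the ATPases, and from other lists the genes past 1.5-fold or the highest and lowest. Further levels and genes were added after their values were seen, and the members and lists were chosen with earlier results of these data known. Alternatives were the mean over all probe sets, no suffixed probe sets, a loess fit (span 0.4), subtraction of the median, no floor, a floor of 7 and 2-fold. All 34 symbols matched RefSeq, 27 with a promoter entry. The tools were Python 3.11.15, pandas 2.3.3, numpy 2.4.6 and statsmodels 0.14.6.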

Additional observations from a re-analysis of the deposited data

How the results depend on the processing

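No paired analysis was possible because there was 1 array per genotype, and for the same reason no replicate could be left out. The counts of 0 subunits at 1.5-fold, higher and lower, stayed 0 with averaged probe sets and without suffixed probe sets. The latter setting left 32 of the 34 subunits. Both counts were also 0 after the loess fit, but that fit, at most 0.02 in size, was too small to move any subunit past 1.5-fold. The other 4 alternatives could not move the counts either. They only removed genes, raised the fold, lowered a floor that all subunits had passed or subtracted a median of 0. At 1.2-fold the 1 higher subunit became 2 after the loess fit, which brought in *Chd4*, and 0 with a floor of 7, which removed *Smarcd3*. The 2 lower subunits became 1 with a floor of 7, without suffixed probe sets and as the mean over all probe sets, where the 1 is *Smarcd1* with -0.32 through a dim probe set. The median of SWI/SNF ran from -0.024 to 0.0046, and that of NuRD went from 0.11 to 0.051 as the mean over all probe sets. Under averaged probe sets, no suffixed probe sets and the loess fit, 95 of 100 values of single subunits moved by less than the probe set spread of 0.145. Most of these could not have moved by more. The 34 loess values could shift by at most 0.02, and 33 others rested on the same probe set as before. The 5 values that moved by more than the spread came from the mean over all probe sets. They were *Smarcd1* (to -0.32), *Smarcd2* (-0.17), *Bcl7a* (-0.09), *Bcl7c* (0.00) and *Gatad2a* (-0.08), of which *Gatad2a* changed sign. For *Smarcd1* and *Bcl7a* the move came from probe sets with means under 5. *Smarcb1* (-0.03) and *Hdac2* (-0.01) also changed sign under that alternative but moved by less than the spread. There the gap of *Smarcd1* and *Smarcd2* became -0.15, that of *Smarcd1* and *Smarcd3* -0.66, that of *Bcl7a* and *Bcl7b* -0.10 and that of *Bcl7a* and *Bcl7c* -0.09. With a floor of 7 only 9 of the 19 pairs could be read, the widest being *Phf10* and *Dpf2* with 0.32. Over all genes 112 were higher and 124 lower with a floor of 7, which tests fewer genes, and 43 and 62 at 2-fold, which counts fewer by construction. The cause of the other changes was not tested. The loess fit ran from -0.01 to 0.02. With single arrays, differences of the size seen in the subunits cannot be set against the variation between cultures.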

Other observations

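Among the probe sets with a mean under 5, which the floor leaves out of the main counts, 2 lay farther from 0 than any brighter probe set of the subunits. A second probe set of *Smarcd1* went from 3.44 in *BCL11B*+/+ to 2.87 in *BCL11B*-/- MEFs, while the dimmest of *Smarce1* read 3.55 and 3.16. The dimmer probe set of *Mta1* read 3.66 and 3.92. *Zmynd8*, a reader of histone marks that binds NuRD, read 9.87 and 9.84 on its brightest probe set, while its 3 dimmest differed by 0.21 to 0.36. Of these, the ones that read 5.74 and 5.96, and 5.13 and 5.48, have means above 5. The dimmest read 4.54 and 4.89. The values under 5 lie near the floor of the arrays, and no replicate stands beside any value given here.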
